A study of Mus musculus with 8 samples.

Results

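Genes for the main components of basement membranes, 10 in all, were followed in single cells of the mouse intervertebral disc: the collagen IV chains Col4a1 and Col4a2, the laminin chains Lama1, Lama4, Lama5, Lamb1 and Lamc1, the nidogens Nid1 and Nid2, and Hspg2, which encodes perlecan. They were taken by name from the 31053 genes of the deposited tables, and all 10 were found. The mice were Tagln-CreERt2;R26tdTomato, in which the promoter of Tagln drives a Cre recombinase that tamoxifen switches on, and cells with active Cre and their descendants then make the red protein tdTomato. Tagln, the gene of transgelin, is best known from smooth muscle. Tamoxifen was given at postnatal day 5, and whole discs of lumbar spine and tail were taken at 8 weeks or at postnatal day 10 (P10), so both ages share the genotype and the tamoxifen. Muscle and blood vessels were removed as far as possible before digestion, which bears on the number of vessel cells. The labels list 8 samples, 4 per age, but the cells of each age sit in 1 count matrix with no map to samples. Each age was therefore 1 sample here: differences between ages carry no test and cannot be told apart from differences between libraries.

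Basement membranes are thin sheets of matrix that lie under epithelia and endothelia and around muscle, nerve and fat cells. Laminins, which are trimers of an α, a β and a γ chain, polymerise on the cell surface and bind integrins and dystroglycan there. Collagen IV forms a separate covalent network, and nidogens and perlecan connect the networks. Cells of the notochord lie in a basement membrane sheath in the embryo, and the nucleus pulposus (NP), the soft core of the disc, descends from the notochord. In cartilage the same proteins occur as a pericellular coat rather than as a sheet, and perlecan is abundant there.

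Counted transcripts (unique molecular identifiers, UMIs) came to 115097999 over 7597 barcodes at 8 weeks and to 143203550 over 7690 barcodes at P10. After filtering, 6342 cells of 8 weeks and 6999 P10 cells remained, with medians of 14684 and 18300 UMIs, and 12 barcodes occurred in both libraries. Cells were clustered without the 10 genes and named "-like" from marker genes alone. NP-like cells numbered 2301 at 8 weeks and 306 at P10, chondrocyte-like cells 2147 and 4930, hypertrophic chondrocyte-like cells 130 and 119, tendon fibroblast-like cells 900 and 864, endothelial-like cells 131 and 119, and mural-like cells (pericytes and vascular smooth muscle) 32 and 50. The NP markers T and Krt19 stood at 1479 and 1512 CPM (UMIs per 1000000 UMIs of the class) in NP-like cells at 8 weeks and at 1314 and 2423 CPM at P10, while the NP marker Noto was at 0 at both ages. The endothelial marker Cdh5 stood at 787 and 643 CPM in endothelial-like cells, against at most 0.25 CPM in NP-like cells. NP markers summed to 1846 and 1307 CPM in the endothelial-like cells, against 26856 and 30533 CPM in NP-like cells, and chondrocyte markers to 1982 CPM at 8 weeks and 14906 CPM at P10. In mural-like cells chondrocyte markers summed to 523 CPM at 8 weeks and 28073 CPM at P10. Mural markers summed to 2613 and 2269 CPM in endothelial-like cells, against 15992 and 9215 CPM in mural-like cells. The part of markers of other classes in the levels below was not tested. Chondrocyte-like and tendon fibroblast-like cells of the ages lay in almost entirely separate clusters, whereas the endothelial-like, mural-like and hypertrophic clusters held cells of both ages. Apart from Col4a1 and Col4a2, which are neighbours on chromosome 8, the genes lie on separate chromosomes of GRCm38 (GENCODE M21): Lama1 at chr17:67697259-67822647, Lama4 at chr10:38965515-39110188, Lama5 at chr2:180176373-180225859, Lamb1 at chr12:31265234-31329644, Lamc1 at chr1:153218922-153332786, Nid1 at chr13:13437551-13512269, Nid2 at chr14:19751265-19811787 and Hspg2 at chr4:137468769-137570630. All levels below are CPM of summed UMIs with exact 95% Poisson intervals, ratios carry exact conditional binomial intervals, and intervals cover counting error only.

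Col4a1 and Col4a2 encode the chains that make the common collagen IV trimer. Their genes lie head to head on mouse chromosome 8 (GRCm38), with transcription start sites 21 bases apart. Col4a1 runs on the minus strand from position 11312826 and Col4a2 on the plus strand from position 11312805. Each start lies inside the annotated span of the other gene, so both promoter windows also cover transcribed sequence of the other gene. The windows, 250 bases before to 50 after each start, came from RefSeq on GRCm38.p6. They are shown because the levels of both genes went together across cell classes (Pearson r = 0.94 over 21 sums of class and age). Capitals mark the GC box GGGCGG or its complement CCGCCC. The window of perlecan, a gene with a broad level across classes, is given for comparison, and the stretch shared by both collagen windows is on the last line.
Col4a1, chr8:11312777-11313076, minus strand: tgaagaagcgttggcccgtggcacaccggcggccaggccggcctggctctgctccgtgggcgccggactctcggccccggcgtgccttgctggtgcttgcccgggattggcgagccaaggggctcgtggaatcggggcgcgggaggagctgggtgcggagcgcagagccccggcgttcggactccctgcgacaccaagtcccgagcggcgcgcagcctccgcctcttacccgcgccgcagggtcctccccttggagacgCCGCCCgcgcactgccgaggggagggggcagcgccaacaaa
Col4a2, chr8:11312555-11312854, plus strand: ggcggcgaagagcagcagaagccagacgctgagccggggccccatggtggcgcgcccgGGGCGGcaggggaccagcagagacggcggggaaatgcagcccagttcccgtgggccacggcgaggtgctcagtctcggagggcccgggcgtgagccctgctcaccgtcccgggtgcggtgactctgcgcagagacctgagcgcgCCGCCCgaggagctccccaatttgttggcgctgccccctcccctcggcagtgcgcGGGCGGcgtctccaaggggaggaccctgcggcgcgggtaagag
Hspg2, chr4:137468553-137468852, plus strand: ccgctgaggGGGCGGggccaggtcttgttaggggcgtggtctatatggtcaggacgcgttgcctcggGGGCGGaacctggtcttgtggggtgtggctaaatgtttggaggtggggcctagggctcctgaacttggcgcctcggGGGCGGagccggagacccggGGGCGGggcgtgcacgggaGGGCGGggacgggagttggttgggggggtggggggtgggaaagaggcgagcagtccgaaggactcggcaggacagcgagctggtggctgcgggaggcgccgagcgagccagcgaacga
Shared, chr8:11312777-11312854, plus strand: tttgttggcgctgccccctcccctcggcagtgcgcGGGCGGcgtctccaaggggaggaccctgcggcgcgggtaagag
The 78 shared bases hold 1 GC box. The Col4a1 window holds 1, the Col4a2 window 3 and the Hspg2 window 5, with both strands searched. Of 32851 promoter windows in the same table, 35.7% held a GC box, 37.4% a CCAAT box and 13.6% the letters TATAAA. Windows of 6 of the 10 genes were matched, and Lama5, Lamb1 and Nid1 held 4, 2 and 1 GC boxes. None of the 6 windows held TATAAA, and GC content ran from 63.7% to 74.0%, against a median of 52.7% over all windows. A match is a description of letters and no measure of factor binding.

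Both collagen IV chains had their highest levels in vessel cells. Col4a1 stood at 1969 CPM (interval 1911 to 2028) in endothelial-like cells at 8 weeks and 3209 CPM (3142 to 3278) at P10, and at 3029 and 1938 CPM in mural-like cells. Col4a2 stood at 1077 and 1898 CPM in endothelial-like cells and at 1379 and 1191 CPM in mural-like cells. Mural-like cells were thus above endothelial-like cells for both chains at 8 weeks and below them at P10, and the intervals did not overlap. Endothelial-like and mural-like cells made up 2.57% of the cells at 8 weeks and 2.41% at P10, and held 79.2% and 67.5% of all Col4a1 UMIs. They held a smaller part of the Col4a2 UMIs, 36.5% and 42.6%. Below the vessels at P10 came satellite-like cells (muscle stem cells), with 808 CPM of Col4a1, Schwann-like cells with 500 CPM and connective fibroblast-like cells with 350 CPM.

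NP-like cells had almost no collagen IV of this type. Col4a1 reached 0.66 CPM (0.442 to 0.948) at 8 weeks and 2.50 CPM (1.45 to 4.00) at P10 in NP-like cells, from 29 and 17 UMIs. Col4a2 reached 1.30 CPM from 57 UMIs and 4.55 CPM from 31 UMIs. In neutrophil-like cells at P10, which are not a source of collagen IV, Col4a1 stood at 7.90 CPM (2.57 to 18.4) and Col4a2 at 19.0 CPM (9.80 to 33.1). The Col4a1 interval overlapped that of NP-like cells at P10, and the Col4a2 interval lay above it (3.09 to 6.46 in NP-like cells). Chondrocyte markers summed to 49653 CPM in these neutrophil-like cells. Their part in those levels, and the part of free RNA in the NP-like counts, were not tested. A Col4a1 UMI was seen in 5.23% of NP-like cells at P10, with a median of 17598 UMIs per cell, and in 1.83% of neutrophil-like cells, with a median of 3263. Thinned to 2000 UMIs per cell, which left out 9 NP-like and 24 neutrophil-like cells, the shares were 0.673% and 0 of 85 cells. Per cell, NP-like cells carried 0.0556 Col4a1 UMIs at P10 and neutrophil-like cells 0.0459. Hypertrophic chondrocyte-like cells were as low, with 2.06 and 2.19 CPM of Col4a1.

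The ratio of both chains differed by tissue. Col4a1 made up 64.6% and 62.8% of the Col4a1 and Col4a2 UMIs of endothelial-like cells at 8 weeks and P10, and 68.7% and 62.0% in mural-like cells. In chondrocyte-like cells it made up 20.5% (18.8 to 22.3%) and 25.5% (24.1 to 26.9%), and in tendon fibroblast-like cells 22.3% and 31.5%. Summed over their cells, these 2 classes therefore counted more Col4a2 than Col4a1. Vessel cells had the opposite order, as did connective fibroblast-like (57.1%), Schwann-like (56.5%) and satellite-like cells (68.8%) at P10. The order of the class sum did not hold in every chondrocyte-like cluster at 8 weeks. Across these 4 clusters Col4a2 ran from 0.67 to 125 CPM and Col4a1 from 2.04 to 27.0 CPM, so the cluster lowest in Col4a2 had more Col4a1. Hypertrophic chondrocyte-like cells had too few UMIs for an order, 7 of Col4a1 and 6 of Col4a2 at 8 weeks. A ratio of 3′ counts of 2 genes compares classes, not amounts of the chains. In hypertrophic chondrocyte-like cells at 8 weeks, the few collagen IV UMIs belonged mostly to Col4a5 (50.7%) and Col4a6 (40.7%), which encode chains of a separate trimer.

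**Figure D1:**
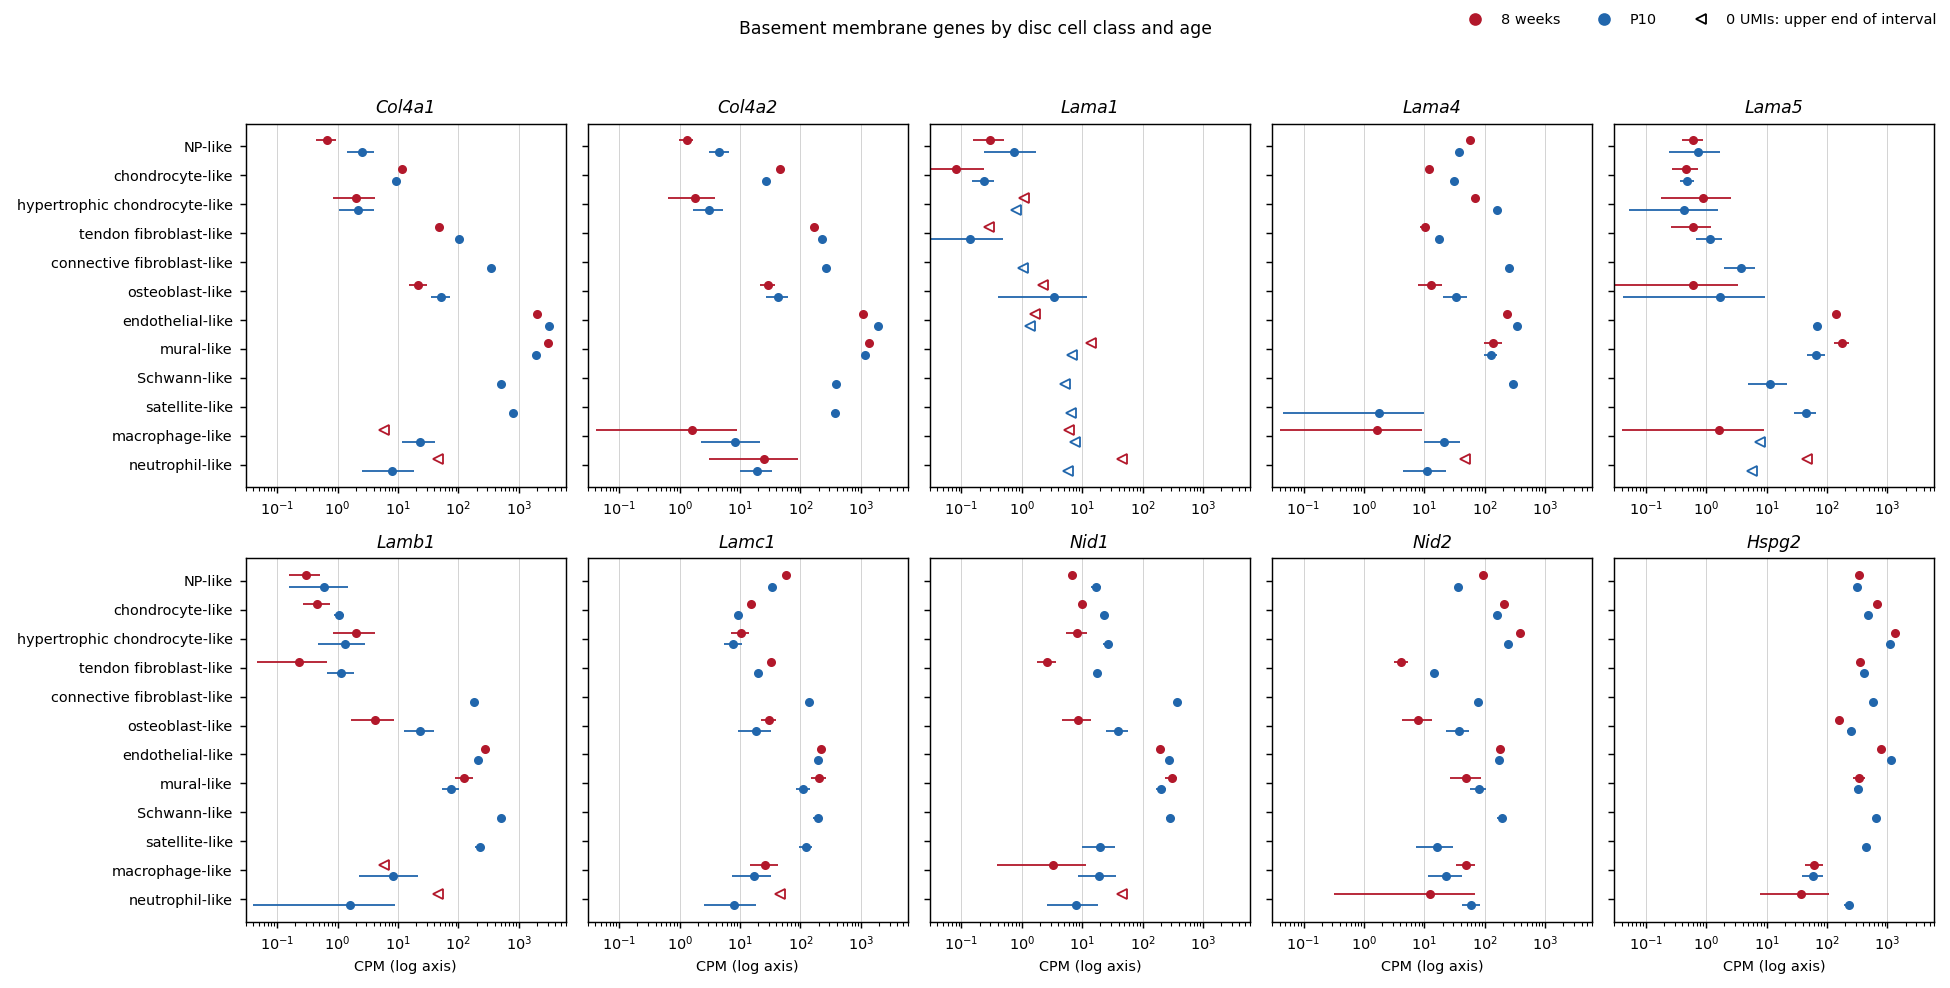
Level of each gene in CPM on a log axis, by cell class (rows), at 8 weeks (red, upper point) and P10 (blue, lower point); bars are exact 95% Poisson intervals, cut at the left edge of the axis, and open triangles mark the upper end of the interval where 0 UMIs were counted. Col4a1 stands at 0.66 CPM in NP-like and 3029 CPM in mural-like cells at 8 weeks, while Hspg2 lies between 160 and 1348 CPM in all classes except macrophage-like and neutrophil-like cells.

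Among laminin α chains, Lama4, the chain of vessel, nerve and fat basement membranes, was the one counted in NP-like cells. Lama4 stood at 57.4 CPM (55.1 to 59.6) at 8 weeks and 37.3 CPM (32.9 to 42.2) at P10 in NP-like cells. Per cell at P10 this was 0.830 UMIs in NP-like cells, against 0.0642 in neutrophil-like cells, which had fewer UMIs per cell and 11.1 CPM of Lama4. Lama4 made up 96.3% of the α-chain UMIs of NP-like cells at 8 weeks and 91.7% at P10. Its highest level was in endothelial-like cells, 237 and 335 CPM, and at P10 Schwann-like cells (294 CPM) and connective fibroblast-like cells (253 CPM) followed, with intervals that overlapped from 1 class to the next. Hypertrophic chondrocyte-like cells had 69.1 CPM at 8 weeks and 157 CPM at P10. Satellite-like cells at P10 had only 1 UMI of Lama4, and 81.7% of their α-chain UMIs belonged to Lama2, the chain of muscle basement membrane.

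Lama5, the other vascular α chain and the main one of adult epithelia, was counted mostly in vessels, which held 82.9% of its UMIs at 8 weeks and 63.8% at P10. It stood at 141 CPM (126 to 157) and 68.1 CPM (58.5 to 78.8) in endothelial-like cells, at 176 and 65.8 CPM in mural-like cells, and at 44.3 CPM in satellite-like cells at P10. NP-like cells had 0.61 and 0.73 CPM, from 27 and 5 UMIs. In endothelial-like cells Lama5 made up 35.0% of α-chain UMIs at 8 weeks (31.9 to 38.2%) and 15.8% at P10 (13.8 to 18.1%). Lama1, the α chain of the early embryo and of the notochord sheath, was at the edge of detection, with 16 UMIs in the 8-week library and 34 at P10. At 8 weeks 13 of the 16 UMIs lay in NP-like cells, which held 40.1% of all UMIs, and 3 lay in chondrocyte-like cells. At P10 5 of the 34 lay in NP-like cells, which held 4.79% of all UMIs, and 25 in chondrocyte-like cells.

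The β chain set NP-like cells apart from vessels. Lamb1, the β chain of the classical laminin and of capillaries, had 13 UMIs at 8 weeks (0.30 CPM) and 4 at P10 (0.59 CPM) in NP-like cells. Endothelial-like cells had 275 CPM (254 to 297) and 214 CPM (197 to 232), and Schwann-like cells at P10 had 503 CPM. Of the β-chain UMIs of NP-like cells, 68.1% and 65.4% belonged to Lamb3, a β chain known from epithelia, 31.7% and 34.3% to Lamb2 and 0.13% and 0.28% to Lamb1. Lamb3 made up 8.52% and 3.14% in chondrocyte-like cells, and its level in NP-like cells was 18.5 and 71.2 times that in chondrocyte-like cells. Lama3, an α chain that pairs with Lamb3, stood at 0.93 and 1.62 CPM in NP-like cells.

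Lamc1, the γ chain shared by most laminins, was counted in every class of at least 25 cells except neutrophil-like cells at 8 weeks, where the class held only 28 cells. It stood at 57.0 CPM (54.8 to 59.3) at 8 weeks and 34.1 CPM (29.8 to 38.8) at P10 in NP-like cells, below endothelial-like (218 CPM) and mural-like cells (202 CPM) at 8 weeks.

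**Figure D2:**
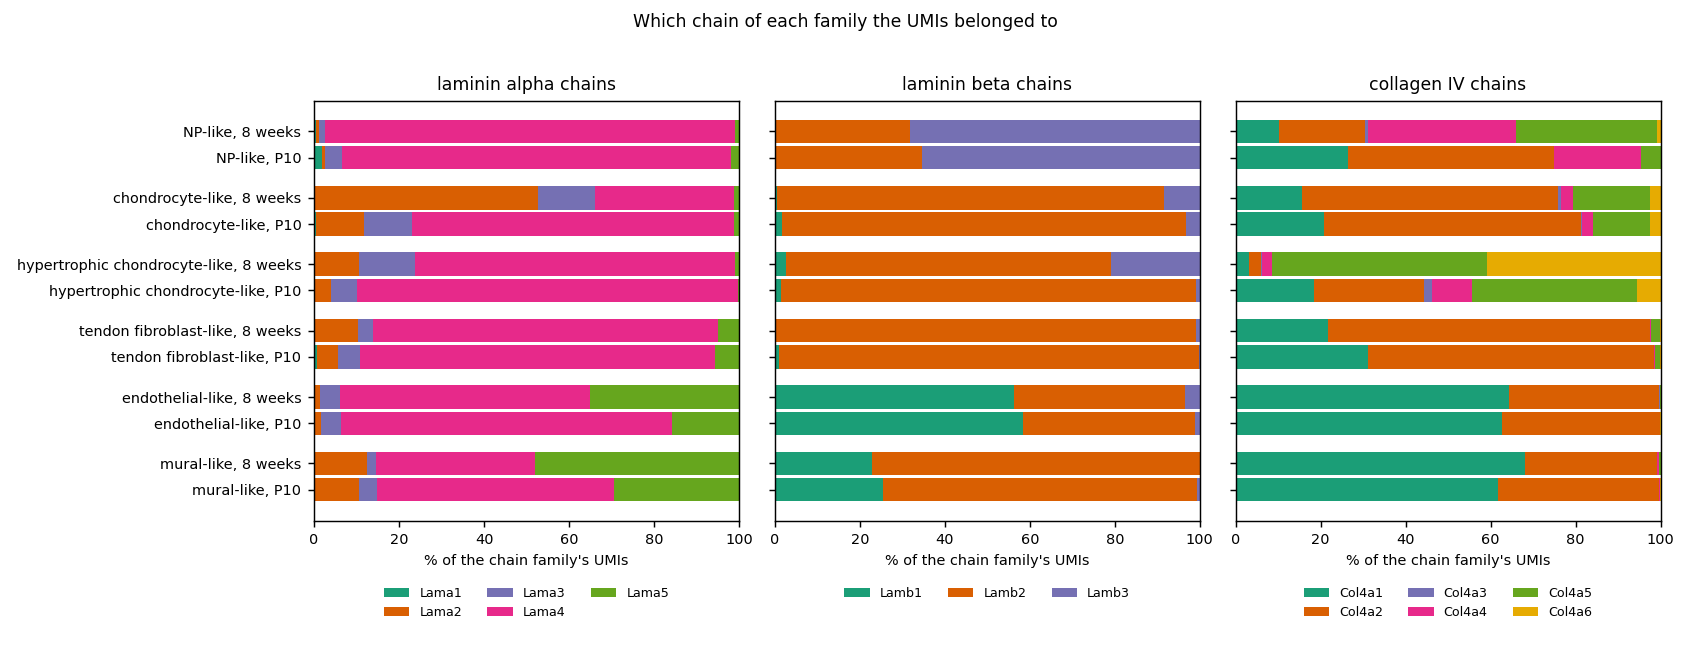
Share of each chain, in % of the UMIs of its family, in 6 cell classes at 8 weeks (upper bar of each pair) and P10 (lower bar). NP-like cells show Lama4 with Lamb3 and Lamb2, endothelial-like cells show Lama4 and Lama5 with Lamb1 and Lamb2, and chondrocyte-like cells at 8 weeks show 52.5% Lama2.

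The nidogens had different places in the disc. Nid1, the more widespread nidogen, was highest in mural-like cells at 8 weeks (302 CPM, against 196 CPM in endothelial-like cells) and in connective fibroblast-like cells at P10 (366 CPM, against 278 CPM in Schwann-like and 270 CPM in endothelial-like cells). NP-like cells had 6.88 CPM (6.12 to 7.70) at 8 weeks and 17.0 CPM (14.1 to 20.4) at P10. Nid2 was instead highest in hypertrophic chondrocyte-like cells, 378 and 243 CPM, and high in chondrocyte-like cells, 207 and 159 CPM. NP-like cells had 92.5 CPM (89.6 to 95.3) at 8 weeks and 36.6 CPM (32.2 to 41.4) at P10. Tendon fibroblast-like cells had 4.13 and 14.6 CPM. Nid2 thus made up 93.1% and 68.2% of nidogen UMIs in NP-like cells, 95.4% and 87.5% in chondrocyte-like cells, but 47.9% and 39.2% in endothelial-like and 14.1% and 27.7% in mural-like cells. The P10 level of Nid2 in NP-like cells was below that of neutrophil-like cells in CPM (60.1 CPM, 38 UMIs, of which 7 were in 1 cell). Per cell, NP-like cells carried 0.814 Nid2 UMIs and neutrophil-like cells 0.349. Chondrocyte markers summed to 49653 CPM in these neutrophil-like cells, and their part in the Nid2 level was not tested. Macrophage-like cells at P10 had 7582 CPM of chondrocyte markers and 23.0 CPM of Nid2. After thinning, a Nid2 UMI was seen in 3.03% of NP-like and 2.35% of neutrophil-like cells at P10. The thinned share was 13.97% in NP-like cells at 8 weeks.

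Among chondrocyte-like, hypertrophic, tendon fibroblast-like and unnamed clusters, the ones highest in Nid2 were low in Col4a2. At 8 weeks the chondrocyte-like clusters 0, 5 and 16 and the hypertrophic cluster 8 had 386, 193, 490 and 378 CPM of Nid2 with 1.56, 4.80, 0.67 and 1.76 CPM of Col4a2. Cluster 4, which is also chondrocyte-like, and the tendon fibroblast-like cluster 3 had 4.32 and 4.13 CPM of Nid2 with 125 and 164 CPM of Col4a2. The unnamed cluster 1 had 171 CPM of Col4a2, the highest of the 8, together with 88.5 CPM of Nid2, and the unnamed cluster 10 had 49.9 and 21.4 CPM. Across the 8 clusters of these kinds at 8 weeks, log2(CPM + 1) levels of Col4a2 and Nid2 had a Pearson correlation of -0.87 (Spearman -0.86), and across 9 at P10 of -0.83 (Spearman -0.57). These points share 1 library per age and are a description. NP-like clusters stood outside this order, with low Col4a2 and intermediate Nid2. Among them at 8 weeks, cluster 2 (916 cells) had 36.0 CPM of Nid2, 198 CPM of Hspg2 and 72.7 CPM of Lama4, and cluster 6 (1203 cells) 109 CPM, 384 CPM and 53.9 CPM.

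**Figure D3:**
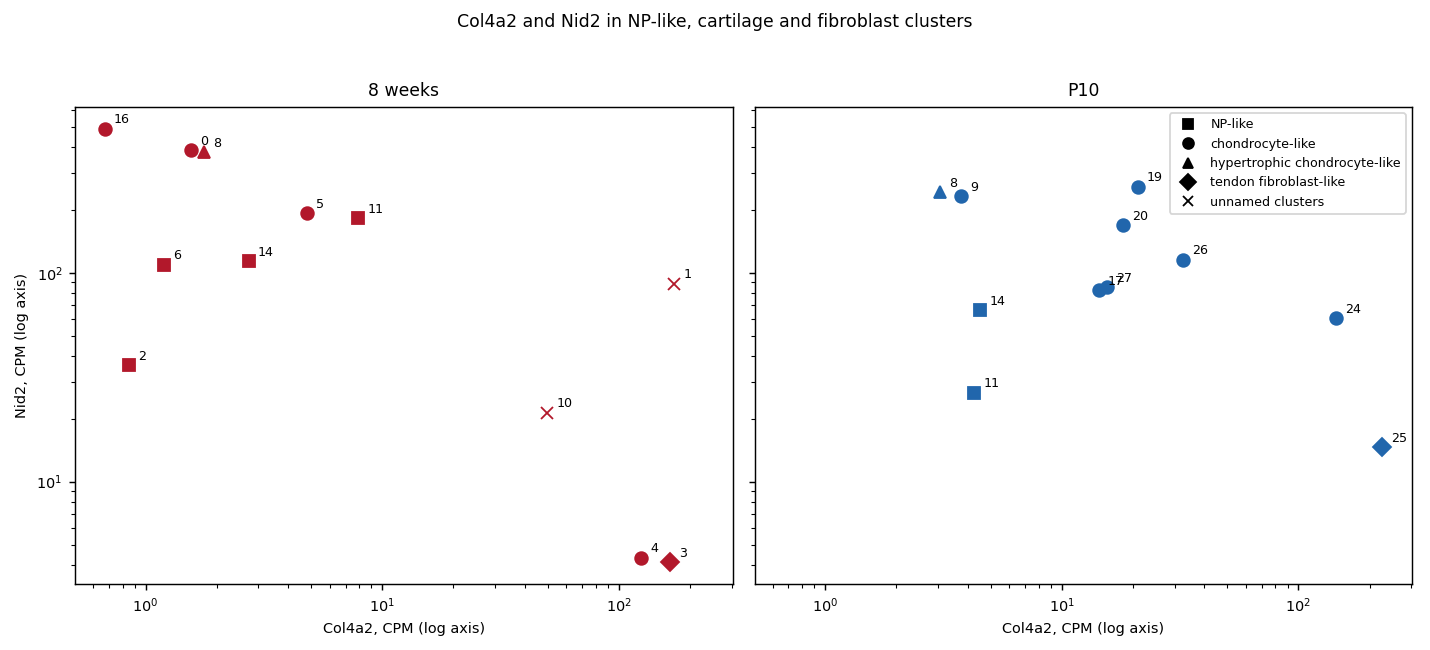
Nid2 against Col4a2 in CPM, both on log axes, for each NP-like, chondrocyte-like, hypertrophic chondrocyte-like, tendon fibroblast-like and unnamed cluster with at least 25 cells at 8 weeks (left) and P10 (right), with the cluster number beside each point. At 8 weeks clusters 3 and 4 lie at the lower right and clusters 0, 8 and 16 at the upper left.

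Perlecan, the heparan sulfate proteoglycan that links the networks and holds growth factors in cartilage, had a more even level. Hspg2 stood at 343 CPM (337 to 348) at 8 weeks and 311 CPM (298 to 325) at P10 in NP-like cells, where a UMI was seen in 86.4% and 87.3% of cells (42.9% and 34.7% when thinned). It was highest in hypertrophic chondrocyte-like cells at 8 weeks (1348 CPM), and at P10 in endothelial-like (1135 CPM) and hypertrophic chondrocyte-like cells (1116 CPM), which did not differ beyond their intervals. Chondrocyte-like cells had 672 and 483 CPM and tendon fibroblast-like cells 346 and 404 CPM. The level in neutrophil-like cells at P10, a class with 49653 CPM of chondrocyte markers, was 231 CPM. It came from 146 UMIs in 22.9% of those cells, with up to 21 in 1 cell. Per cell this was 6.92 UMIs in NP-like and 1.34 in neutrophil-like cells. These per-cell counts carry the difference in depth, with medians of 17598 and 3263 UMIs. Macrophage-like cells at P10 had 58.6 CPM of Hspg2.

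Compared with all other cells of the same library, NP-like cells at 8 weeks had lower Col4a1 (log2 ratio -7.25, interval -7.83 to -6.72), Col4a2 (-6.48), Lamb1 (-5.18), Lama5 (-3.35) and Nid1 (-1.20) and higher Lama4 (1.18, 1.09 to 1.27). A gene was called when its ratio passed 2-fold and both sums together held at least 100 UMIs. By that rule 1 of 9 tested genes was called higher and 5 lower, against 15.6% and 18.7% (34.3% in either direction) of all 13447 genes tested. At P10 0 were called higher and 6 of 9 lower (Col4a1 -5.39, Lamb1 -4.57, Col4a2 -4.44, Nid2 -1.96, Lama5 -1.75 and Nid1 -1.16), against 17.0% and 19.3% (36.4% in either direction) of 13105 genes. Lama4, higher at 8 weeks, lay below 0 within 2-fold at P10, from -0.64 to -0.30 over all processing settings. Lamc1 was 0.91 and 0.83, within 2-fold, and Hspg2 -0.76 and -0.70. The P10 value of Lamc1 was -0.22 when cells were thinned to 2000 UMIs, so its direction depended on the processing. Against chondrocyte-like cells alone, Lama4 was 2.27 at 8 weeks but 0.25 at P10, where chondrocyte-like cells had 31.3 CPM, and Lamc1 was 1.89 at both ages. Col4a1 (-4.14 and -1.90), Col4a2 (-5.12 and -2.57), Nid1 (-0.52 and -0.42) and Nid2 (-1.16 and -2.12) were lower in that comparison too. Lamb1 (-0.65, -1.81 to 0.48, and -0.87, -2.77 to 0.53) and Lama5 (0.40, -0.53 to 1.37, and 0.59, -1.09 to 1.90) had intervals that included 0. Relative to the median gene, Lama4 lay just under 2-fold at 8 weeks (1.00 after rounding). Lama1 was under the minimum at both ages.

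Endothelial-like cells had 7 of 9 genes called higher than in all other cells at 8 weeks and 8 of 9 at P10, against 18.2% and 27.9% of all genes, with 0 lower against 22.0% and 17.2% (either direction 40.2% and 45.2%). At 8 weeks the ratios were 8.23 for Lamb1 (7.92 to 8.55), 6.96 for Lama5, 6.61 for Col4a1, 4.55 for Nid1, 4.47 for Col4a2, 2.80 for Lama4 and 2.54 for Lamc1. Lamb1 was 4.49 at P10, where Schwann-like, satellite-like and connective fibroblast-like cells held 18.9%, 6.71% and 33.7% of its UMIs. These classes numbered 1, 2 and 23 cells at 8 weeks, and endothelial-like cells then held 86.3% of the Lamb1 UMIs. Nid2 was within 2-fold at both ages (0.52 and 0.36), and Hspg2 was 0.74 at 8 weeks and 1.23 at P10. Within the vessels, endothelial-like cells exceeded mural-like cells in Hspg2 by 1.23 and 1.82 and in Nid2 by 1.86 and 1.15 on the log2 scale, and in Lamb1 by 1.12 and 1.51. Mural markers were also counted in endothelial-like cells, and their part in these ratios was not tested.

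The comparison of ages asks how the basement membrane genes stood in each class in the young adult relative to the early postnatal disc. Nid1 was lower at 8 weeks in each of the 4 NP, cartilage and fibroblast classes. It was 2.60 CPM at 8 weeks against 17.5 CPM at P10 in tendon fibroblast-like cells (log2 ratio -2.75, interval -3.31 to -2.23), 8.23 against 26.3 CPM in hypertrophic chondrocyte-like cells (-1.67), 6.88 against 17.0 CPM in NP-like cells (-1.31, -1.62 to -0.99) and 9.88 against 22.8 CPM in chondrocyte-like cells (-1.20). In endothelial-like cells it was -0.46 (-0.64 to -0.29) and in mural-like cells 0.56 (0.12 to 0.99). Nid2 was higher at 8 weeks in NP-like cells (1.34, 1.15 to 1.53), lower in tendon fibroblast-like cells (-1.82, -2.28 to -1.38) and within 2-fold elsewhere among classes past the minimum.

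In NP-like cells, 5 genes passed the minimum, Nid2 was called higher and Nid1 lower, against 15.2% and 2.91% (18.1% in either direction) of all genes, and the median gene was at 0.35. Lama4 (0.62), Lamc1 (0.74) and Hspg2 (0.14) were within 2-fold, and the other 5 genes were too low. The clusters of the ages differed: 246 of the 306 P10 cells lay in cluster 11, which held 25 cells at 8 weeks, while clusters 2 and 6 held 916 and 1203 cells at 8 weeks and 6 and 7 at P10. In cluster 14, which held 157 cells at 8 weeks and 47 at P10, Nid2 was 0.78 (0.49 to 1.08) and Nid1 -0.70 (-1.44 to 0.06), so neither passed 2-fold there. Within cluster 11 Nid2 was 2.77 (2.07 to 3.42), past 2-fold, from 23 UMIs at 8 weeks and 131 at P10. Nid1 was 0.39 (-1.91 to 1.99) in cluster 11, from 3 and 89 UMIs, so its direction was not resolved there. For all NP-like cells, after division by the median gene, Nid2 was 0.98, under the threshold, and Nid1 -1.66.

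In chondrocyte-like cells Lama4 (-1.40, -1.55 to -1.25), Lamb1 (-1.20) and Nid1 were lower at 8 weeks, 3 of 8 tested, and 0 were higher, against 4.95% and 28.3% (33.3% in either direction) of genes, with the median gene at 0.52. Lama4 was 11.9 CPM at 8 weeks against 31.3 CPM at P10, and its share of α-chain UMIs was 32.7% against 75.8%, while that of Lama2 was 52.5% against 11.2%. Col4a1 (0.33) and Col4a2 (0.74) were within 2-fold, but their sign depended on the processing: they ran from -1.45 to 0.65 and from -3.25 to 1.20 over the alternatives. In hypertrophic chondrocyte-like cells Lama4 (-1.18) and Nid1 were lower, 2 of 4 tested, against 7.88% of genes, and 0 were higher against 14.3% (22.1% in either direction). In tendon fibroblast-like cells Col4a1 (-1.14, -1.28 to -1.01), Nid1 and Nid2 were lower, 3 of 7 tested, against 6.15% of genes, and 0 were higher against 15.7% (21.8% in either direction). The Nid2 value did not keep its direction when clusters were formed in other ways.

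In endothelial-like cells Lama5 was higher at 8 weeks, 141 against 68.1 CPM (1.05, 0.78 to 1.32), 1 of 9 tested, against 6.73% of genes, and 0 were lower against 2.59% (9.32% in either direction). Lama5 was 0.86 relative to the median gene, under the threshold. Col4a1 (-0.70, -0.76 to -0.65), Col4a2 (-0.82), Hspg2 (-0.51) and Lama4 (-0.50) lay below 0 within 2-fold, and Lamb1 (0.36), Lamc1 (0.16) and Nid2 (0.05) did not. In mural-like cells 0 of 6 tested genes were called, against 10.7% of genes higher and 12.0% lower (22.7% in either direction). Col4a1 was 0.64 (0.51 to 0.78) there. Lama5 was 1.42 (0.76 to 2.09), from 46 and 36 UMIs and so under the minimum. Chondrocyte markers were also lower at 8 weeks in both vessel classes, 1982 against 14906 CPM in endothelial-like and 523 against 28073 CPM in mural-like cells, and their part in these ratios was not tested.

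**Figure D4:**
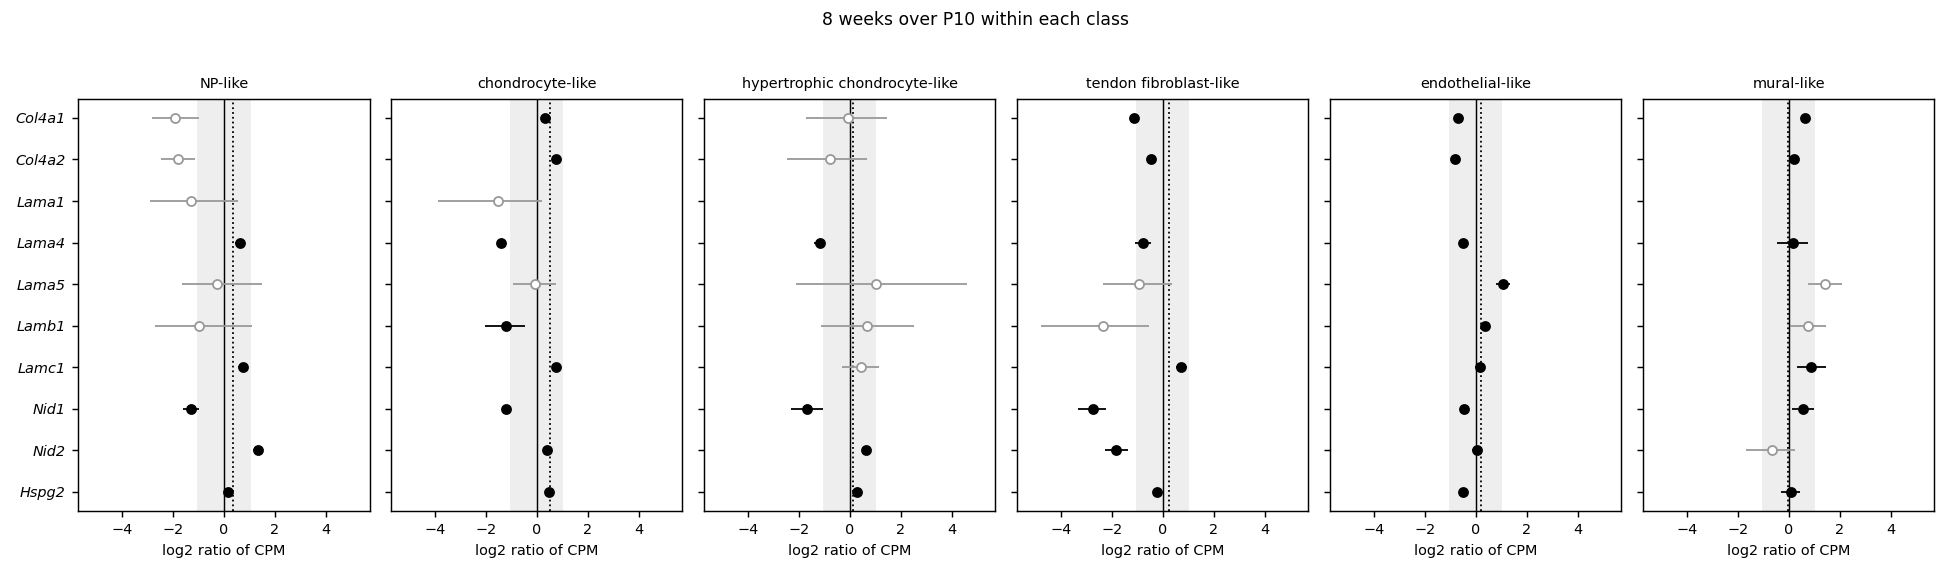
Log2 ratio of 8 weeks over P10 for each gene in 6 cell classes, with 95% counting intervals; filled points passed the minimum of 100 UMIs, open grey points did not, the grey band is within 2-fold, the dotted line is the median gene, and genes at 0 UMIs at either age are not drawn. Nid1 lies left of the band in the first 4 classes and inside it in endothelial-like and mural-like cells.

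Related basement membrane genes were counted in the same comparisons, where 15.6% of all genes were higher and 18.7% lower in NP-like cells at 8 weeks, and 17.0% and 19.3% at P10. Of 7 genes for enzymes that build the laminin-binding sugar of dystroglycan, 4 were higher and 0 lower in NP-like cells at each age. Pomgnt1 was 1.27 above all other cells in NP-like cells at 8 weeks and 0.78 at P10 on the log2 scale, and B4gat1 was 0.87 and 1.47. Of 11 basement membrane turnover genes, 1 was higher at each age, and 7 and 6 were lower. Of the other basement membrane proteins, 2 of 13 tested were higher and 7 lower at 8 weeks. At P10 2 of 14 were higher and 6 lower. Among the other laminin and collagen IV chains, 1 of 9 tested was higher in NP-like cells at each age, Lamb3 (4.52 and 6.08), and 5 and 4 were lower. Of 15 laminin and collagen IV receptors tested, 4 were higher and 5 lower in NP-like cells at 8 weeks, against 15.6% and 18.7% of all genes. At P10 3 were higher and 4 lower, against 17.0% and 19.3%. Cd151, a tetraspanin partner of laminin-binding integrins, was 1.90 and 2.89, and Itgb1, the common integrin β1 chain, was 0.91 and 0.67. Of 14 genes for collagen folding and crosslinking, 4 and 6 were lower in NP-like cells with 0 higher, Serpinh1 (the collagen chaperone HSP47) at -1.53 and -1.65.

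Between the ages in NP-like cells, 2 of 13 tested receptors were higher at 8 weeks, near the 15.2% of all genes higher there (2.91% were lower), the syndecan Sdc4 (1.08) and the collagen receptor Ddr1 (1.16). Of 11 tested other basement membrane proteins, Agrn (agrin, 1.86) and Col18a1 (1.19) were higher, and Smoc2 (-2.34) and Fras1 (-3.47) were lower. Timp1 (-1.31) and the collagenase gene Mmp2 (-4.77) were the lower 2 of 9 tested turnover genes. In tendon fibroblast-like cells 7 of 14 folding and crosslinking genes were lower at 8 weeks, with Serpinh1 at -1.96 and P4hb, a subunit of prolyl 4-hydroxylase, at -1.24, and 0 higher, against 6.15% of all genes lower and 15.7% higher. In endothelial-like cells 2 of 14 tested receptors were higher at 8 weeks, against 6.73% of all genes, Itgb4 (2.42) and Itga3 (1.79). Genes named here from outside the 3 most counted of a list were chosen after their values were seen.

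Reporter-high NP-like cells, those with at least 10 UMIs of WPRE4, an exogenous sequence that the authors counted and that is taken here as the mark of the reporter transcript, were compared with reporter-low ones. Tagln drives the Cre, so the split asks whether lineage-marked NP-like cells differed in these genes. At 8 weeks 1287 cells were reporter-high and 1014 reporter-low, and at P10 204 and 102. Of the 10 genes, 6 passed the minimum of 50 UMIs at 8 weeks and 5 at P10, and 0 were called, against 1.48% and 1.23% of all genes in either direction (0.214% higher and 1.26% lower at 8 weeks, 0.81% and 0.417% at P10). At 8 weeks Nid2 was 85.3 CPM in reporter-high and 103 CPM in reporter-low cells (-0.27, -0.36 to -0.18), Hspg2 was 323 and 372 CPM (-0.20), and Nid1 was 6.0 and 8.17 CPM (-0.45, -0.78 to -0.11). Lama4 (-0.04, -0.15 to 0.08) and Lamc1 (0.11) were close to 0. Taken alone, cluster 2 gave a Nid2 value of 0.14 (-0.19 to 0.48) and cluster 6 of -0.14 (-0.24 to -0.03). At P10 the intervals of the 5 genes past the minimum all included 0, with Nid1 at -0.55 (-1.12 to 0.03).

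**Figure D5:**
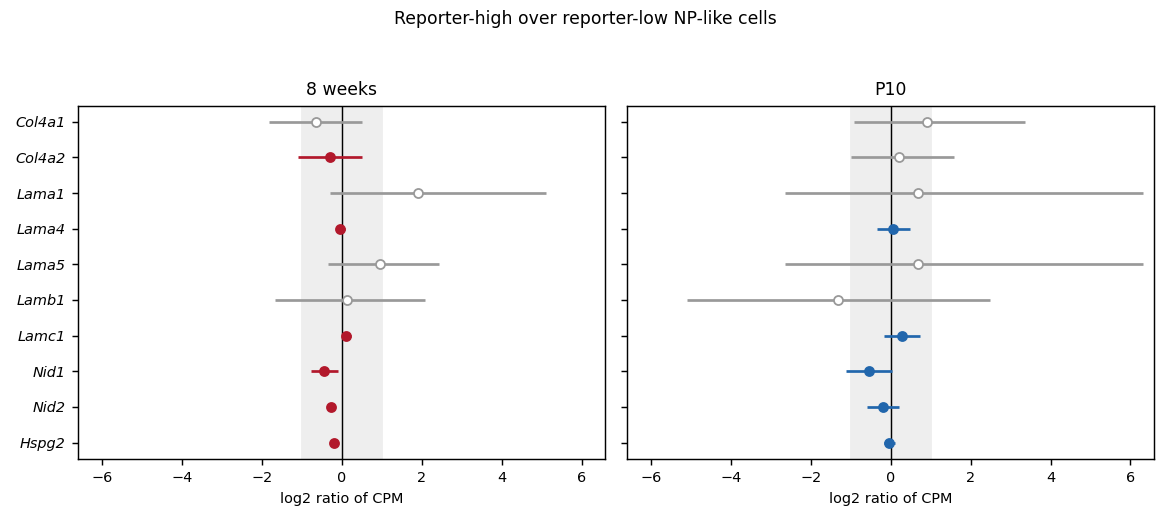
Log2 ratio of reporter-high over reporter-low NP-like cells for each gene at 8 weeks (left) and P10 (right), with 95% counting intervals; filled points passed the minimum of 50 UMIs and the grey band is within 2-fold. All filled points lie within the band.

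Across 21 sums of class and age, the gene most like Col4a1 in log level was Col4a2 (Pearson r = 0.94), among 11764 genes searched. The 5 most similar genes included Tmem47 (0.94) and Adamts4 (0.93) for Col4a1. Lamb1 was most like Olfml2a (0.94), Lamc1 was most like Itgb1 (0.92), Lama4 was most like Nid1 (0.84), Nid1 was most like Akap12 (0.89), and Lama5 was most like Iigp1 (0.94). Nid2 was most like Acly (0.80) and, next, Itga6 (0.77), the α chain of laminin-binding integrins, and Hspg2 was most like Dlc1 (0.86). Among the 10 genes themselves, Col4a1 correlated with Lamb1 at 0.89 and Lama5 at 0.87, and with Nid2 at 0.06. The sums share 2 libraries, and the correlations are a description. Lama1, with so few UMIs, is not compared.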

How the data were processed

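Droplet-based single-cell RNA was measured in digested whole discs. The submitters' processing notes name Cell Ranger 3.1.0, and the same version number stands in the file headers. Each age has a deposited table of raw UMI counts over genes and another over 96 exogenous sequences. The notes also name mm10, GRCm38 and Seurat 3, with no role given. Other deposited lists name the barcodes and genes.

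Cells with at least 500 genes, 1000 UMIs and at most 15% mitochondrial UMIs were kept. Scrublet called 139 doublets at 8 weeks (2.14%) and 0 at P10, where it has not worked. Both ages were clustered together in Scanpy 1.11.5 (Python 3.11.15) with 2000 variable genes, 30 components, 15 neighbours and resolution 1, leaving the 10 genes and 6 related lists (86 genes in all) out of the variable genes, which gave 28 clusters. A name needed at least 3 markers and 50% of its list to be 2-fold above other cells and seen in at least 25% of a cluster (Col10a1 among them for hypertrophic cells), or 8 of 13 chondrocyte markers in 50% of its cells. With 1 matrix per age there is no replicate and no p-value; ratios, intervals and calls were computed from summed counts. Shares of cells were also thinned to 2000 UMIs per cell. The named genes are all 10 members, in each related list the 3 most counted genes, and others noted as chosen later; some list genes are not reported here. Calls were checked on simulated counts that held counting error only, so the check does not cover differences between cells or libraries. Alternatives were clusterings, doublet limits, thinning, scalings, minimum counts and reporter thresholds. The genes and lists were chosen with earlier results of these data known.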

Additional observations from a re-analysis of the deposited data

How the results depend on the processing

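No paired analysis was possible because each age is 1 matrix with no map from cells to the 4 samples, and leaving out a replicate was not possible for the same reason. Under the 12 processing settings (3 more for the reporter split), counts of called genes moved by no more than 1.5 times in 129 cases and by more in 20. In NP-like cells, 2 genes were called between ages, against 4 with each library clustered on its own or with a minimum of 20 UMIs, 1 with median gene scaling and 5 with no minimum. In hypertrophic chondrocyte-like cells, 2 became 1 at resolution 2, with basement membrane genes among the variable genes and with a doublet score limit of 0.25, and 0 when thinned; resolution 0.5 gave no such class. In tendon fibroblast-like cells, 3 became 1 when thinned and 5 with no minimum. In endothelial-like cells, 1 became 0 with the doublet limit, thinning, median gene scaling or a denominator without the top 50 genes, and 2 with the mean of per-cell CPM. In mural-like cells, 0 became 1 with a minimum of 20 UMIs or none. In the reporter split, 0 became 1 with per-cell means or no minimum at 8 weeks and with no minimum at P10. The tendon fibroblast-like Nid2 ratio between ages, -1.82, was 0.43 with basement membrane genes among the variable genes and 1.78 with the doublet limit, and the cause was not tested. The Nid1 ratio in NP-like cells ran from -1.69 to -1.19 and Nid2 from 0.98 to 2.36 over all settings. Ratios of NP-like over other cells for Col4a1 stayed between -7.76 and -2.71, for Lamb1 between -5.54 and -2.95. Genes with few UMIs in small classes (mural-like 32 and 50 cells) are limited by depth.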
